A study of Rattus norvegicus with 19 samples.

Results

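A set of 10 genes of the regulated secretory pathway were followed in the paraventricular nucleus (PVN) and the supraoptic nucleus (SON) of hypertensive and normotensive rats. They were chosen by name: the granin genes Chga, Chgb, Scg2 and Scg3, the convertase genes Pcsk1 and Pcsk2, the convertase chaperone gene Scg5, the carboxypeptidase gene Cpe, and the granule cargo genes Vgf and Resp18. Of these 10 genes, 9 were measured, each by 1 probe set, among the 14217 genes with a single symbol on the array, and Pcsk1 was not analysed here. All 9 passed the filter on low signals in every comparison, and 0 of their values lay at the floor set for weak signals. The 19 microarrays held RNA from untreated rats aged 12 weeks by the labels, without any transgene or drug. The Spontaneously Hypertensive rat (SHR), an inbred strain that develops high blood pressure, gave 5 PVN arrays and 4 SON arrays, and its normotensive control strain Wistar Kyoto (WKY) gave 5 arrays of each nucleus. The methods describe male animals of 1 supplier and pools of 5 nuclei, read here as 1 pool per array, so an array stands for several rats and the spread between arrays is not that between single animals.

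The PVN and SON of the hypothalamus hold the magnocellular neurones that make vasopressin and oxytocin and send them to the posterior pituitary, and the PVN also holds parvocellular neurones that make releasing hormones. Such peptides are made as large precursors, sorted into dense-core granules, cut by prohormone convertases at pairs of basic residues, trimmed by carboxypeptidase E and then released on demand. Granins are acidic, calcium-binding proteins that aggregate in the granule, help to form it and are themselves cut into peptides. The genes followed here therefore belong to a shared pathway rather than to a particular hormone, and the cells that express them were not separated here.

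The promoters of 3 members are shown because cyclic AMP response elements (CRE), the palindrome TGACGTCA bound by CREB proteins, are a known feature of granin and Vgf genes. The sequences are from RefSeq (rat build GRCr8), run from 250 bases before the gene start to 50 after it, and capitals mark the CRE and TATAAA matches on either strand, the latter overlapping each other in Vgf. Scg2, which differed in level between the nuclei, lies on the minus strand at chr9:88256817-88257116. Vgf lies on the minus strand at chr12:25276971-25277270. Chgb, which was lower in SHR in both nuclei, lies on the plus strand at chr3:140496462-140496761 and had no CRE match in this window.
Scg2: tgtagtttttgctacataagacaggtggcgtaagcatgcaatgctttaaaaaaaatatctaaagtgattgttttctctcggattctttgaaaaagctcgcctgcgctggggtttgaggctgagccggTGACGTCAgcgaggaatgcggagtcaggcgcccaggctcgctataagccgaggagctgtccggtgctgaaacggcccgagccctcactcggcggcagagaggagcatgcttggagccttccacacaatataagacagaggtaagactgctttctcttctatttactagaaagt
Vgf: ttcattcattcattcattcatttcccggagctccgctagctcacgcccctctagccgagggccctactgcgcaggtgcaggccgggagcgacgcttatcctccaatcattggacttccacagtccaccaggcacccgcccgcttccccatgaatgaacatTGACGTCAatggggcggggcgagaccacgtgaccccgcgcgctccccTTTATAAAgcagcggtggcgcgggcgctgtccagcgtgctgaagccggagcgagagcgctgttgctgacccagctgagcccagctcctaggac
Chgb: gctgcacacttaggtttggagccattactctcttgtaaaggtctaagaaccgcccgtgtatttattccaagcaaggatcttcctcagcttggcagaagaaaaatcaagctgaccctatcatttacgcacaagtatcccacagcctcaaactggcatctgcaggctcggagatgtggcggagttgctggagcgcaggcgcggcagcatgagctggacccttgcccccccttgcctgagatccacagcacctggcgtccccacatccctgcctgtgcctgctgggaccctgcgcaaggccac

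A promoter was found for 8 of the 10 members. The full CRE lay at base -123 in Scg2 and -90 in Vgf, 2 of 8, and 1.83% of all 33469 rat promoters of this length held it on either strand. The shorter core TGACG, which is contained in the full CRE, was in 6 of 8 member promoters (Scg2, Scg3, Scg5, Pcsk2, Cpe and Vgf) against 21.2% of all. GGGCGG, the GC box, was in 5 of 8 against 33.1%, CACGTG in 1 (Vgf) against 6.42%, TATAAA in 1 (Vgf) against 14.2%, and TGANTCA in 0 against 7.33%. GC content ran from 54.0% to 73.3% in 7 of the windows, the highest being Pcsk2, and lay below the median of all promoters (51.7%) in Scg2. These matches describe the letters in the windows and no binding was measured.

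Values are log2 of the MAS 5.0 signal after each array was scaled to a common median, which differed from 35.9 to 46.5 between arrays as deposited. Differences were tested with limma, and a gene was called higher or lower at an adjusted p under 0.05 over all probe sets tested, with no fold limit. Neuropeptide and nucleus markers were read beside the tissue labels. Those given here are shared by the PVN and the SON, so they cannot tell which nucleus an array came from. Avp and Oxt, the vasopressin and oxytocin genes, had group means from 11.90 to 12.38 on the log2 scale, and Sim1, a transcription factor of both nuclei, had means from 6.18 to 7.51. The probe set of Pou3f2 was at the floor on all 19 arrays and that of Otp on 9 of 19, so neither could be read as a marker. Array 4 of PVN SHR and array 3 of SON WKY correlated less with their own group (mean r 0.947 and 0.929) than the other arrays of those groups. Because whole nuclei were measured, fewer cells of a type and less RNA per cell cannot be told apart.

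In the PVN, Chgb and Resp18 were lower in SHR than in WKY, and no member was called higher. Chgb encodes chromogranin B, a major soluble granin, and Resp18 encodes a small endocrine and neuronal protein of the secretory pathway. Signal in SHR was 71.0% of that in WKY for Chgb and 73.0% for Resp18. All 9 members had a difference below 0, as had 58.3% of all probe sets tested and 93.9% of those in the top 5% of mean signal. Of the 9, 2 were called lower, against 1.22% of the 16104 probe sets tested. For the other direction 0 of 9 were called, against 1.14% of probe sets.

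The Chgb probe set (1368034_at) read 9.73, 9.64, 9.75, 9.76 and 9.77 on the WKY arrays of the PVN and 9.51, 9.21, 9.27, 9.0 and 9.19 on the SHR arrays. All SHR arrays were below all WKY arrays, and array 1 was the nearest to them. The difference was -0.49 on the log2 scale (SE 0.11, limma adjusted p = 0.0208). Leaving out any of WKY arrays 1, 3, 4 or 5 or SHR arrays 2 or 5 moved the adjusted p to between 0.0515 and 0.0618, with the difference between -0.50 and -0.48.

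Resp18 (1367904_at) read 11.98, 11.97, 11.94, 11.96 and 11.95 in the PVN of WKY and 11.63, 11.52, 11.38, 11.54 and 11.46 in that of SHR. The WKY arrays were tightly grouped (SD 0.02, n = 5) and the groups did not overlap. The difference was -0.45 (SE 0.09, adjusted p = 0.0143). With quantile normalisation in place of median scaling it was -0.17 (adjusted p = 0.249), and without SHR array 3 the adjusted p was 0.0509 at a difference of -0.42.

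Groups that do not overlap in the lower direction were seen for 2 of 9 members, against 2.52% of probe sets. The other 7 members were not called in the PVN. Among the granins, Scg2 differed by -0.27 (95% interval -0.49 to -0.05, adjusted p = 0.242), Scg3 by -0.31 (-0.58 to -0.04, adjusted p = 0.291) and Chga by -0.16 (-0.47 to 0.15, adjusted p = 0.711). In the processing group the convertase gene Pcsk2 differed by -0.43 (-0.72 to -0.13, adjusted p = 0.149), its chaperone gene Scg5 by -0.22 (-0.47 to 0.03, adjusted p = 0.442) and Cpe by -0.29 (-0.52 to -0.06, adjusted p = 0.221). Vgf, a neurotrophin-induced gene whose product is cut into several peptides, differed by -0.41 (-0.80 to -0.02, adjusted p = 0.334). At an unadjusted p under 0.05, 7 of the 9 members passed, all of them lower, and so did 8.13% of all probe sets in that direction and 27% of those in the top 5% of mean signal.

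Array 1 of SHR, which had the lowest median as deposited (35.9), was the highest of the 5 PVN SHR arrays for 9 of 9 members after median scaling, for 5 of 9 in the values as deposited and for 4 of 9 after quantile normalisation. With median scaling and without this array 5 members were called lower, adding Scg2 (-0.33, adjusted p = 0.048), Scg3 (-0.41, adjusted p = 0.0447) and Cpe (-0.36, adjusted p = 0.0416). Leaving it out of the values as deposited gave 3 called members (Chgb, Scg3 and Resp18), and after quantile normalisation 1 (Chgb). Without WKY array 2, which was the lowest for Pcsk2, the Pcsk2 difference was -0.54 (adjusted p = 0.0484).

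**Figure D1:**
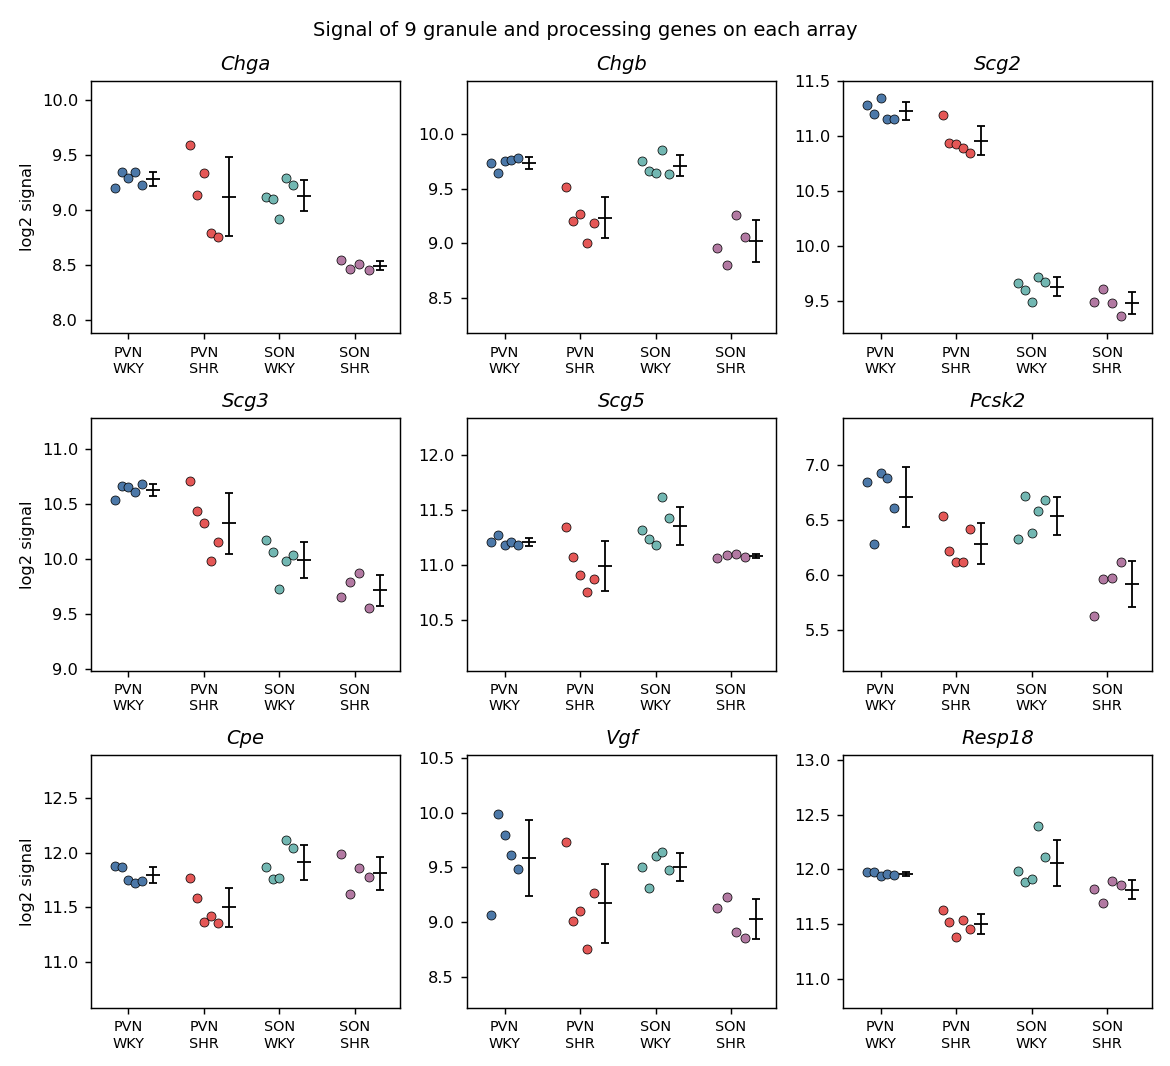
Log2 signal of the 9 measured genes on each of the 19 arrays, by nucleus and strain, with group mean and SD to the right of the points (n = 5, and 4 for SON SHR); every panel spans the same range of log2 units. Chgb was lower in SHR in both nuclei without overlap, and Scg2 lay far lower in the SON than in the PVN.

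In the SON, Chga, Chgb, Pcsk2 and Vgf were lower in SHR than in WKY, at 64.3%, 62.0%, 65.2% and 72% of the WKY signal. Of 9 members 4 were called lower, against 2.33% of 16190 probe sets, and 0 were called higher, against 1.29%. All 9 differences were below 0, as were 58.6% of all probe sets tested and 80.5% of those in the top 5% of mean signal. Groups did not overlap for 5 of 9 members, the called genes and Scg5, against 6.94% of probe sets.

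Chga, the gene of chromogranin A (1387235_at), read 9.12, 9.10, 8.91, 9.29 and 9.22 on the WKY arrays of the SON and 8.54, 8.46, 8.51 and 8.46 on the SHR arrays. The SHR arrays were close together and all below WKY. The difference was -0.64 (SE 0.10, adjusted p = 0.00398). In the PVN its SHR arrays were far more spread, at 9.60, 9.14, 9.34, 8.79 and 8.75, beside 9.20, 9.35, 9.29, 9.35 and 9.23 in WKY, and the groups overlapped.

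Chgb read 9.75, 9.66, 9.64, 9.85 and 9.64 in the SON of WKY and 8.96, 8.80, 9.26 and 9.06 in that of SHR. The gap between the nearest arrays of the groups was wider than the range within WKY. The difference was -0.69 (SE 0.11, adjusted p = 0.00439). Leaving out any array of the SON left the calls of Chga and Chgb in place.

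Pcsk2 (1387155_at) encodes prohormone convertase 2, which cuts many neuropeptide precursors late in the granule. It read 6.33, 6.71, 6.38, 6.58 and 6.68 in the SON of WKY and 5.62, 5.96, 5.97 and 6.12 in that of SHR. Array 1 of SHR was the lowest, and the groups did not overlap. The difference was -0.62 (SE 0.13, adjusted p = 0.0198), and leaving out WKY array 2 or 4 or SHR array 1, 2 or 3 gave an adjusted p between 0.0514 and 0.0553. Pcsk2 was called in 11 of 18 alternative settings, and not by limma without a filter (adjusted p = 0.0767) or by the methods' t-test (0.102).

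Vgf (1368359_a_at, a probe set that can bind several transcripts of the gene) read 9.50, 9.31, 9.60, 9.64 and 9.47 in the SON of WKY and 9.13, 9.23, 8.91 and 8.85 in that of SHR. The groups were separated by a narrow gap. The difference was -0.47 (SE 0.11, adjusted p = 0.0398). It was called without WKY array 2 or SHR array 2 but not without any of the other SON arrays, where the adjusted p ran from 0.0571 to 0.127, and quantile normalisation gave -0.36 (adjusted p = 0.0984).

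The other 5 members were not called in the SON. The chaperone gene Scg5 (1367992_at) read 11.32, 11.24, 11.18, 11.62 and 11.42 in WKY and 11.06, 11.09, 11.09 and 11.07 in SHR, and its difference was -0.28 (95% interval -0.51 to -0.05, adjusted p = 0.175). All SHR arrays of Scg5 were below WKY, and the spread in WKY was the wider. Scg3 differed by -0.28 (-0.53 to -0.03, adjusted p = 0.204), Resp18 by -0.24 (-0.50 to 0.02, adjusted p = 0.287), Scg2 by -0.15 (-0.35 to 0.06, adjusted p = 0.431) and Cpe by -0.10 (-0.35 to 0.15, adjusted p = 0.679). At an unadjusted p under 0.05, 6 of 9 members passed, all lower, as did 12.9% of all probe sets in that direction and 20.3% of those in the top 5% of mean signal.

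**Figure D2:**
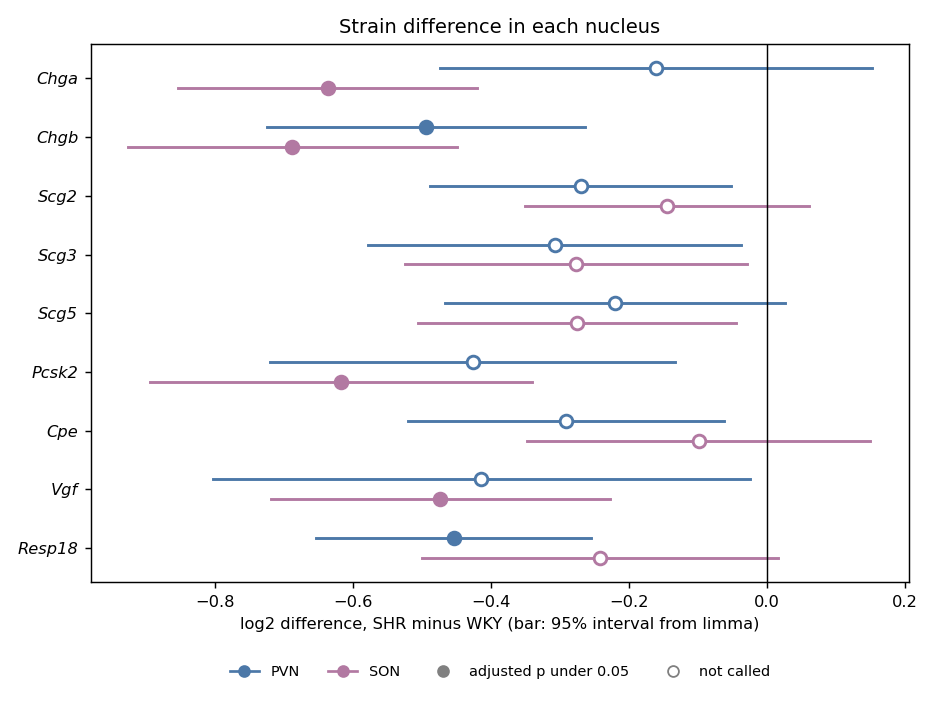
Difference in log2 signal between SHR and WKY for each measured gene, in the PVN (upper bar of a pair) and the SON (lower bar), with 95% intervals from limma; filled points have an adjusted p under 0.05. All points lie below 0, and Chgb is filled in both nuclei.

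The median difference over the 9 members was -0.31 in the PVN and -0.28 in the SON. Over all probe sets tested it was -0.04 in each nucleus. Probe sets with strong signals also lay below 0 on average. Those in the top 5% of mean signal had a median of -0.17 in the PVN and -0.11 in the SON. After quantile normalisation, which gives all arrays the same distribution of signals, the strong probe sets had medians near 0 and the members -0.16 in both nuclei. Under that setting Chgb alone was called in the PVN (-0.40, adjusted p = 0.00587), and Chga (-0.52, adjusted p = 0.00424), Chgb (-0.56, adjusted p = 0.0118) and Pcsk2 (-0.62, adjusted p = 0.0264) were called in the SON. The differences of Cpe and Scg2 shrank to between -0.04 and -0.02, and that of Scg5 in the PVN became 0.02. The share of all calls that were lower also moved with the scaling. It was 64.3% in the SON with median scaling, 47.3% with the values as deposited and 54.7% with quantile normalisation, and 51.8%, 45.9% and 49.7% in the PVN.

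**Figure D3:**
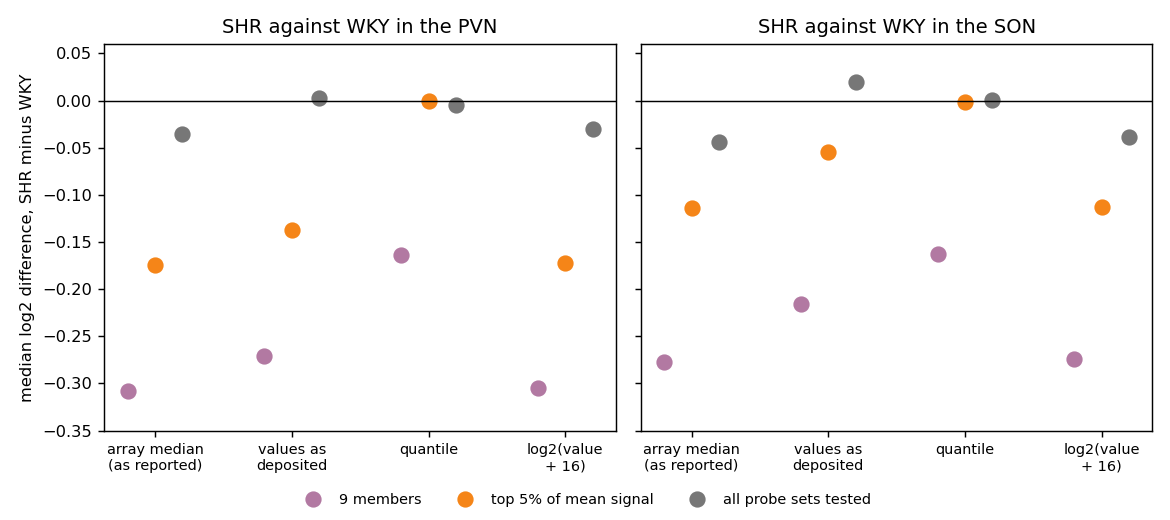
Median log2 difference between SHR and WKY in the PVN (left) and the SON (right) for the 9 measured genes, for probe sets in the top 5% of mean signal and for all probe sets tested, under 4 ways of scaling or transforming the signals. The members' median is below the other medians in each setting and lies at -0.16 in both nuclei after quantile normalisation.

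Markers of cell types were read beside these results. In SHR the 18 neurone markers tested in the PVN had a median difference of -0.18 and the 17 tested in the SON -0.22. Thy1, a surface glycoprotein of neurones, was the neurone marker called in each nucleus (-1.33 and -1.61). The markers of PVN and SON neurones had medians of -0.37 (8 tested) and -0.40 (7 tested), with Sim1 called lower in both (-0.94 and -0.97) and Avp and Oxt not called. In the SON, all 11 meningeal and fibroblast markers were above 0 in SHR, with a median of 0.51, Dcn (1.04) and Lum (1.00) called, and a mean log2 level from 8.05 to 9.38 in SHR and from 7.71 to 8.33 in WKY. In the PVN, 2 ependymal markers were called higher (Ak7 0.48 and Tekt1 0.47). Oligodendrocyte markers had a median of -0.26 in the PVN and 0.08 in the SON, with 0 of 10 called in each. Astrocyte markers had medians of -0.19 in the PVN, close to that of the neurone markers, and -0.12 in the SON. Those of microglia markers were -0.13 and 0.18, and those of endothelial and mural markers 0.01 and -0.07. Of these 3 lists 0 genes were called. Probe sets in the top 5% of mean signal had medians of -0.17 and -0.11. The part of these markers in the differences of the granule genes was not tested.

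**Figure D4:**
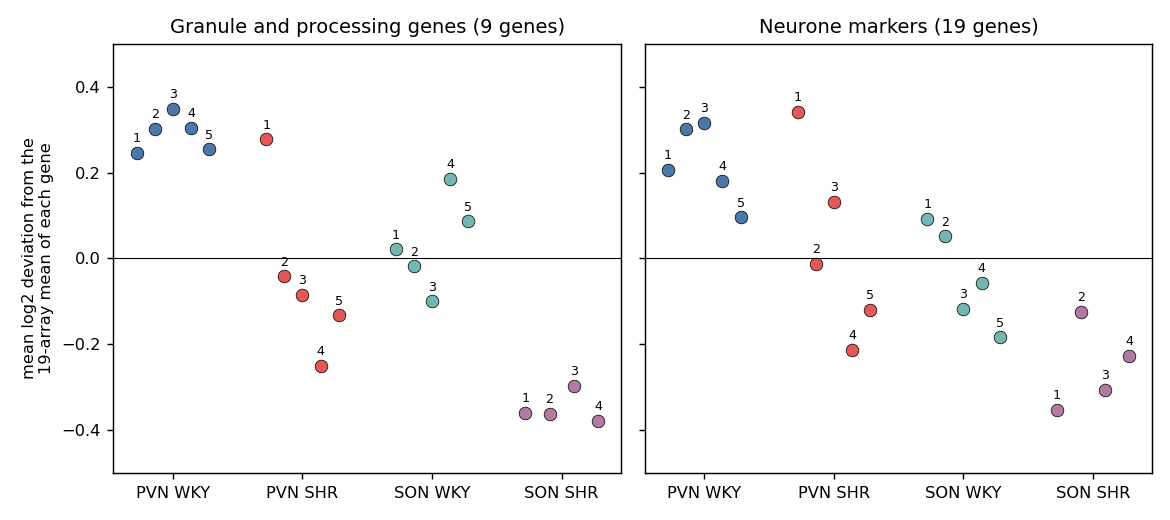
Mean deviation of each array from the 19-array mean of each gene, in log2 units, averaged over the 9 granule and processing genes (left) and over 19 neurone markers (right); numbers are array numbers within a group. After median scaling array 1 of PVN SHR is the highest of its group in both panels, and the 4 SON SHR arrays lie between -0.38 and -0.30 for the granule genes.

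The mean log2 signal over the 9 members was 10.24 ± 0.04 in the PVN of WKY (SD, n = 5), 9.90 ± 0.20 in the PVN of SHR (n = 5), 9.98 ± 0.11 in the SON of WKY (n = 5) and 9.60 ± 0.04 in the SON of SHR (n = 4). The PVN SHR arrays ran from 9.69 in array 4 to 10.22 in array 1 and overlapped both WKY groups. The SON SHR arrays lay below every other array.

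Between the nuclei, the granins Scg2 and Scg3 were lower in the SON than in the PVN in both strains. Scg2 encodes secretogranin II, the precursor of secretoneurin, and Scg3 encodes a granin that anchors other granins to the granule membrane. The SON signal of Scg2 was 33% of that in the PVN in WKY and 35.9% in SHR. In WKY these were the members called, 2 of 9, against 13.7% of 17095 probe sets lower and 13.2% higher. In SHR 3 of 9 members were lower, Chga being the third, against 15.7%, and 2 were higher, Cpe and Resp18, against 13.7%. Groups lay apart in the lower direction for 2 members in WKY (11.1% of probe sets) and 3 in SHR (12.6%), and in the higher direction for 1 member in SHR, Resp18 (10.4%).

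Scg2 (1368044_at) read 11.29, 11.21, 11.35, 11.15 and 11.16 in the PVN of WKY and 9.67, 9.60, 9.49, 9.72 and 9.67 in the SON. In SHR it read 11.19, 10.94, 10.93, 10.90 and 10.85 in the PVN and 9.49, 9.61, 9.48 and 9.36 in the SON. No array of the SON came near any of the PVN. The difference was -1.60 in WKY (SE 0.09, adjusted p = 2.05e-11) and -1.48 in SHR (SE 0.09, adjusted p = 1.85e-10), past 2-fold in each strain.

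Scg3 (1368656_at) read 10.54, 10.67, 10.66, 10.62 and 10.68 in the PVN of WKY and 10.17, 10.06, 9.72, 9.98 and 10.03 in the SON. In SHR the PVN arrays read 10.71, 10.44, 10.33, 9.98 and 10.16 and the SON arrays 9.65, 9.79, 9.87 and 9.55. The nuclei did not overlap in either strain. The difference was -0.64 in WKY (SE 0.12, adjusted p = 0.000384) and -0.61 in SHR (SE 0.13, adjusted p = 0.000991).

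Chga was lower in the SON than in the PVN in SHR, by -0.63 (SE 0.14, adjusted p = 0.00152), with the arrays listed above and no overlap. The SHR arrays were far more spread in the PVN (SD 0.36, n = 5) than in the SON (SD 0.04, n = 4). The methods' t-test, which allows unequal spread, did not call it (adjusted p = 0.0751). In WKY its difference was -0.15 (95% interval -0.42 to 0.11, adjusted p = 0.402). Whether the nucleus difference of Chga depended on strain was the interaction, given below with its own test.

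Cpe (1386921_at) encodes carboxypeptidase E, which removes the basic residues left by the convertases. It read 11.77, 11.58, 11.37, 11.42 and 11.36 in the PVN of SHR and 11.98, 11.62, 11.86 and 11.78 in the SON, with overlap, and 11.88, 11.86, 11.75, 11.72 and 11.74 in the PVN and 11.87, 11.76, 11.76, 12.11 and 12.04 in the SON of WKY. The SON was higher by 0.31 in SHR (SE 0.11, adjusted p = 0.0346), and in WKY the difference was 0.12 (95% interval -0.09 to 0.33, adjusted p = 0.416). Resp18 was higher in the SON by 0.31 in SHR (SE 0.10, adjusted p = 0.023) without overlap, and differed by 0.10 in WKY (-0.10 to 0.29, adjusted p = 0.471). Its SON arrays read 11.98, 11.89, 11.91, 12.40 and 12.11 in WKY and 11.82, 11.69, 11.89 and 11.86 in SHR. Quantile normalisation turned the sign of both SHR values, to -0.06 for Cpe and -0.05 for Resp18, and probe sets in the top 5% of mean signal had a median of 0.16 in this comparison with median scaling. Cpe also lost its call without PVN SHR array 3, 4 or 5 or SON SHR array 1, 3 or 4 (adjusted p from 0.0562 to 0.116), and Resp18 without PVN SHR array 3 or SON SHR array 3 or 4 (0.0567 to 0.0694).

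The other members were not called between the nuclei. Chgb differed by -0.02 in WKY and -0.22 in SHR (adjusted p = 0.892 and 0.133), Pcsk2 by -0.17 and -0.36 (0.366 and 0.0603), Scg5 by 0.15 and 0.09 (0.322 and 0.579) and Vgf by -0.08 and -0.14 (0.748 and 0.579). The groups overlapped for all of these in each strain. With quantile normalisation Chgb (-0.23, adjusted p = 0.0284), Scg5 (-0.19, adjusted p = 0.0131) and Pcsk2 (-0.34, adjusted p = 0.0496) were called lower in the SON of SHR.

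**Figure D5:**
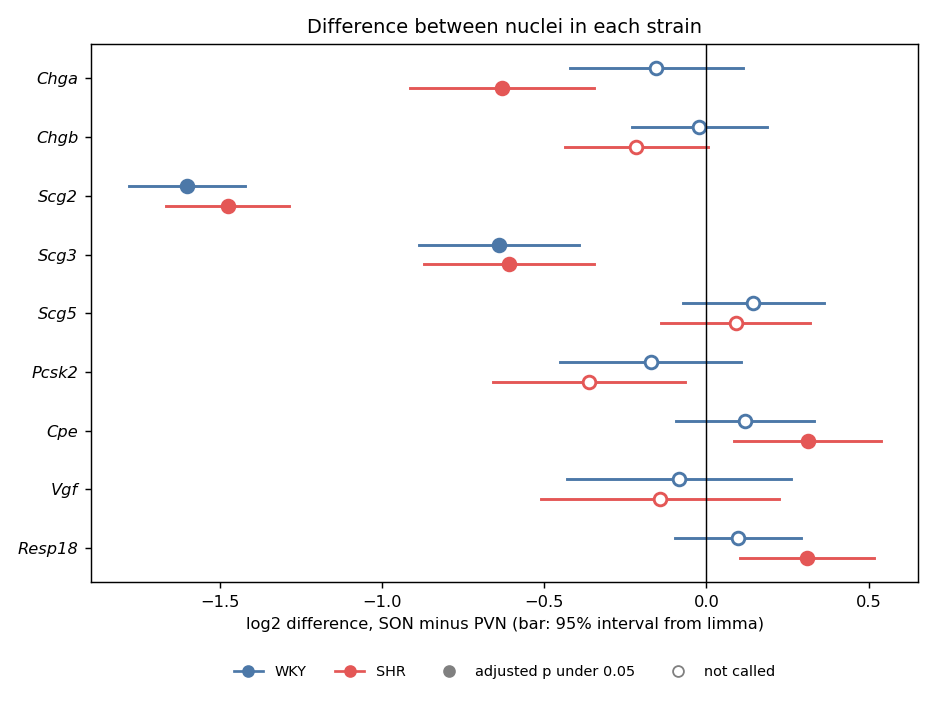
Difference in log2 signal between SON and PVN for each measured gene, in WKY (upper bar of a pair) and SHR (lower bar), with 95% intervals from limma; filled points have an adjusted p under 0.05. Scg2 lies at -1.60 and -1.48, far from the other genes, and Scg3 is filled in both strains.

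Markers of other cells differed between the nuclei as well. All 11 meningeal and fibroblast markers were higher in the SON (medians 3.17 in WKY and 3.6 in SHR), and 5 of 6 ependymal and choroid plexus markers were lower (medians -2.15 and -2.18). Neurone markers had medians of -0.06 and -0.13, with 5 of 18 called lower and 3 higher in WKY and 6 lower and 1 higher in SHR. Endothelial and mural markers were higher in the SON for 6 of 11 in each strain (medians 0.42 and 0.55). Of 10 oligodendrocyte markers 1 was lower in WKY and 4 were higher in SHR (medians -0.02 and 0.36). Of 8 astrocyte markers 3 were higher in each strain, and of 8 microglia markers 2 were lower in each strain and 1 was higher in SHR. Their part in the differences of the members was not tested.

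The order of the group means differed from gene to gene. Scg2 and Scg3 were highest in the PVN of WKY, followed by the PVN of SHR, the SON of WKY and the SON of SHR, and in these genes the strains of a nucleus were neighbours that were not called different. The PVN of SHR and the SON of WKY, neighbours in that order, were not compared. Chgb had close means in the WKY groups, at 9.73 ± 0.05 in the PVN and 9.71 ± 0.09 in the SON (SD, n = 5), and lower in the PVN and SON of SHR, at 9.24 ± 0.19 (n = 5) and 9.02 ± 0.19 (n = 4). Vgf and Pcsk2 had the same order of means. The arrays of Vgf were widely spread in the PVN, at 9.07, 9.99, 9.80, 9.61 and 9.48 in WKY and 9.73, 9.01, 9.11, 8.76 and 9.27 in SHR. For Pcsk2 the PVN arrays read 6.84, 6.28, 6.93, 6.88 and 6.61 in WKY and 6.53, 6.22, 6.12, 6.12 and 6.42 in SHR, which overlapped each other and the WKY arrays of the SON. Chga had the PVN of WKY highest at 9.28 ± 0.07 (n = 5), with the SON of WKY and the PVN of SHR nearly level, and the SON of SHR alone below them at 8.49 ± 0.04 (n = 4). Scg5, Cpe and Resp18 had the SON of WKY highest and the PVN of SHR lowest with median scaling, whereas with quantile normalisation the SON of WKY was below the PVN of WKY for all 3 (-0.05 for Cpe, -0.06 for Resp18 and -0.0027 for Scg5).

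The interaction set the strain difference of the SON against that of the PVN (SON less PVN), and it was called for 0 of 9 members. Over all 17095 probe sets, 0.0702% were called lower and 0.0117% higher. At an unadjusted p under 0.05 limma gave 1 member, Chga, with an interaction of -0.48 (95% interval -0.87 to -0.09, adjusted p = 0.621). Chgb had -0.19 (-0.50 to 0.11), Pcsk2 -0.19 (-0.60 to 0.22), Cpe 0.19 (-0.12 to 0.50) and Resp18 0.21 (-0.07 to 0.50). For the remaining members it was 0.13 in Scg2, 0.03 in Scg3, -0.06 in Scg5 and -0.06 in Vgf. A member called in 1 nucleus only was therefore not shown to differ between the nuclei in its strain difference.

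Other genes of the pathway were read from lists of enzymes, granule proteins, precursors and transcription factors. Of 19 other processing enzymes and inhibitors tested in the PVN, 0 were called by limma between the strains, while 2 higher and 2 lower genes reached an unadjusted p below 0.05. In the SON 1 of 21 was called, Furin, the convertase of the Golgi and cell surface, at -0.46 (SE 0.10, adjusted p = 0.0281). Furin was also 1 of 22 genes of this list called in the interaction (-0.84, adjusted p = 0.0339), with group means of 6.22 and 6.59 in the PVN of WKY and SHR and 6.15 and 5.69 in the SON. The list's median difference was -0.10 in the PVN and 0.00 in the SON, unlike the members' medians.

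Among genes of the granule membrane, granule biogenesis and release, 0 of 29 were called in the PVN by limma, while 6 lower and 0 higher genes reached an unadjusted p below 0.05. In the SON 3 of 28 were lower and 0 higher. These were Cyb561, the granule membrane cytochrome that regenerates ascorbate inside the granule for peptide amidation (-0.56, adjusted p = 0.00753), Hid1, a Golgi protein needed for granule formation (-0.55, adjusted p = 0.0335), and Nucb1, a calcium-binding Golgi protein (-0.45, adjusted p = 0.0467). Differences were below 0 for 24 of 29 genes in the PVN (median -0.19) and for 27 of 28 in the SON (median -0.26), which is 82.8% and 96.4%. The shares over all probe sets were 58.3% and 58.6%, and those over the top 5% of mean signal 93.9% and 80.5%. These medians lay between those of all probe sets and those of the members.

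Among the precursors that the enzymes act on, 2 of 23 were lower in the PVN of SHR, Grp (gastrin-releasing peptide, -1.01, adjusted p = 0.00383) and Cck (cholecystokinin, -0.55, adjusted p = 0.0421), and 1 was higher, Nppa (atrial natriuretic peptide, 0.86, adjusted p = 0.00342). In the SON 5 of 19 were lower and 0 higher. The 4 with the largest differences were Ucn (urocortin, -1.87, adjusted p = 2.68e-05), Nmb (neuromedin B, -1.04, adjusted p = 0.00121), Gnrh1 (gonadotropin-releasing hormone, -0.65, adjusted p = 0.0214) and Cck (-0.63, adjusted p = 0.0155). Avp and Oxt, the main cargo of magnocellular granules, differed by -0.29 and -0.25 in the PVN and by -0.12 and -0.03 in the SON, and were not called (adjusted p from 0.268 to 0.948). In the interaction 2 of 25 precursors were called lower and 0 higher, against 0.0702% and 0.0117% of all probe sets.

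Among transcription factors and co-repressors linked to granule and precursor genes, Atf6, a sensor of endoplasmic reticulum stress, was higher in SHR in the PVN (0.82, adjusted p = 0.00141; 1 of 17 called) and the SON (0.77, adjusted p = 0.00614). Myt1, a neural and endocrine zinc finger factor, was lower in the SON (-0.57, adjusted p = 0.0167), which made 2 of 18 called there. The medians of this list were -0.09 in the PVN and -0.13 in the SON.

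The same lists were read between the nuclei. Of 22 other enzymes, 7 were higher and 3 lower in the SON of WKY, and 8 and 3 in SHR. The largest rises were in the carboxypeptidase family genes Cpz (1.69 in WKY and 2.47 in SHR) and Cpxm1 (1.13 and 1.46). Their mean log2 signals in the PVN were low, at 4.30 in WKY and 3.66 in SHR for Cpz and 4.90 and 4.78 for Cpxm1. Meningeal and fibroblast markers were also higher in the SON, and the cells behind these rises were not separated. Whether Cpz or Cpxm1 acts on granule peptides was not measured. Pam, picked after its values were seen, which amidates peptides such as vasopressin and oxytocin at the end of the same pathway, was higher in the SON by 0.55 in WKY (adjusted p = 0.000381) and 0.53 in SHR (adjusted p = 0.000943). Of 25 precursors, 6 were higher and 15 lower in WKY, and 4 and 16 in SHR. Ucn (2.69 and 0.81) and Pdyn, the prodynorphin gene of vasopressin neurones (1.82 and 1.93), were higher in the SON. Crh was lower (-4.06 and -4.66), as were Sst (-4.79 and -4.58), Hcrt (-4.48 and -4.12) and Pmch (-5.87 and -5.49). Of 30 granule membrane and release genes, 6 were higher and 4 lower in WKY, and 4 and 4 in SHR, with Rab3d, a granule-associated GTPase (1.74 and 1.36), and Cadps2, a priming factor of dense-core granules (0.99 and 0.68), higher and Slc18a2, the vesicular monoamine transporter, lower by -0.72 and -0.81.

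Over the 19 arrays the median Pearson correlation of the 36 pairs of members was 0.51, from -0.42 to 0.89. Within groups, after each group's mean was taken out, it was 0.48, from -0.05 to 0.81, and above 0 for 35 of 36 pairs. All pairs share the same arrays and the same scaling, whose part in these correlations was not tested.

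The genes whose signal followed the members' mean profile (each member centred and scaled to unit SD) most closely over the 19 arrays were Bmerb1 (r = 0.94), Gprasp2 (0.93), Prkar1a (0.92), Ndfip1 (0.92), Ncoa7 (0.92) and Polr3k (0.91). Their group means had the PVN of WKY or the SON of WKY highest, as in Bmerb1 with 9.46 and 9.33 on the log2 scale and 9.18 and 8.93 in the PVN and SON of SHR. These correlations are a description over 19 arrays in 4 groups.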

How the data were processed

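Pooled nuclei were profiled on Affymetrix whole-genome arrays for the rat. The deposited values are signal intensities on a linear scale, which the authors made with MAS 5.0. Each array was scaled to a common median, signals under the 10th percentile (3.75, log2 1.91) were set to it, and log2 was taken. Of 31042 probe sets without controls, those with a group mean at or above the median of all means were tested. Symbols came from the platform annotation, updated through the Entrez number (assembly GRCr8).

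Strains were compared within a nucleus with limma 3.58.1 in R 4.3.3 (lmFit, eBayes, two-sided, Benjamini-Hochberg adjustment over all probe sets tested). Nucleus comparisons and the interaction used all 4 groups and share arrays with the strain comparisons. They treat the PVN and SON pools as independent, although the methods took both nuclei from the same brain sections. P-values measure the spread between pools. The procedure was tested on simulated data. A gene with several probe sets in a list stands for that with the highest mean. All members were reported, and pathway genes were named by largest called difference, at most 4 per list and direction. The members, lists and tests were chosen with earlier results of these data known. Precision is limited by the number of arrays. Alternatives covered scaling, pseudocount, filter, fit, array weights, replicate block, single arrays left out and the methods' t-test. Detection calls were not used here.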

Additional observations from a re-analysis of the deposited data

Results flagged for a closer look

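Among the 36 combinations of a member and a group, 1 held an array far from the others of its group by Dixon's 95% criterion, which chance alone gives in about 1 of 20 groups. Scg2 on array 1 of PVN SHR had a log2 signal of 11.193 after median scaling, while the nearest array of the group read 10.936, a gap of 0.743 of the group's range. The array does not stand apart under the other scalings. In the values as deposited it read 10.999, below the highest array of the group (11.075), and after quantile normalisation it read 11.144, in a range from 11.077 to 11.271.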

How the results depend on the processing

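The call of Chga as lower in the SON of SHR and the calls of Scg2 and Scg3 as lower in the SON than in the PVN in both strains held under all settings without a fold limit. Over single members and all alternatives, 856 results kept their side of the threshold, 48 lost a call in the same direction and 12 gained a call. A further 2 called results turned in sign and lost their call. Those 2 were Cpe (-0.05505) and Resp18 (-0.05122) in the SON against the PVN of SHR with quantile normalisation. Results without a call at first were sorted by the threshold alone, and some of them turned in sign too. The interaction of Scg3 did so in 6 of 26 settings. Scg5 in the SON against the PVN of SHR went from 0.09 to -0.19 with quantile normalisation (limma adjusted p = 0.0131) and is among the 12. With that normalisation 1 member was called between the strains in the PVN and the median over the members was -0.164 there. After quantile normalisation and without PVN SHR array 1, a setting chosen after seeing the data, these were 1 and -0.139, and the values as deposited without that array gave 3 called members. Array weights gave 4 in the PVN. Testing without a filter gave 2 in the SON. Fitting only the 2 groups gave 3 between the nuclei of SHR.

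The methods' t-test with Benjamini-Hochberg adjustment called 1 member in the PVN, Resp18 (5 at an unadjusted p under 0.05), and 1 in the SON, Chga (6). Chgb was called in neither nucleus by this test (adjusted p = 0.143 in the PVN and 0.0881 in the SON). Between the nuclei of SHR it called 3 members, Scg2, Scg3 and Resp18, and not Chga (adjusted p = 0.0751). The 2-fold limit of the methods, and the same limit on limma, left 0 in the PVN, 0 in the SON, 1 (Scg2) between the nuclei of WKY and 1 (Scg2) between those of SHR. Same-numbered arrays of the strains deviated with r from -0.226 to 0.104. Between the nuclei r ran from -0.00909 to -0.00113 in WKY and from 0.0351 to 0.174 in SHR. The methods took both nuclei from the same brain sections, so pools of the nuclei may share rats. The array labels do not say which pools do, so the numbers were not read as pairs in the main tests. With the replicate block limma called 0 members in the PVN (6 at an unadjusted p under 0.05), 3 in the SON, 2 between the nuclei of WKY, 3 between those of SHR and 0 in the interaction.

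Leaving out single arrays gave 1 to 5 called members in the PVN (5 without SHR array 1), 2 to 3 in the SON (2 without WKY array 4 or SHR array 1 or 3), 3 to 5 between the nuclei of SHR (3 without PVN or SON array 3) and an interaction median from -0.1145 to 0.07893, against -0.06 with all arrays. That median turned without PVN WKY array 1 (0.05317), PVN SHR array 1 (0.07893), SON WKY array 4 (0.01084) or SON SHR array 4 (0.0001813). The cause of these changes was not tested. Averaging all probe sets of a gene changed no member, since each has 1. The number of arrays, and not a read depth, limits the precision.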
